A study of Mus musculus with 10 samples.

Results

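KLF3 and KLF1 peaks met inside introns at 340 listed places in mouse erythroid cells. These were the rows of the authors' KLF3 peak list annotated as intron whose interval shared at least 1 bp with any row of their KLF1 peak list. They made up 340 of the 838 intron peaks of KLF3 (40.6%, 95% exact interval 37.2 to 44.0), in 2 lists that together hold 8379 peaks (4579 for KLF3 and 3800 for KLF1). The KLF3 list gives a row to each summit, so the 340 rows lay in 319 distinct intervals, and the authors assigned them to 308 genes by the nearest transcription start site. They overlapped 360 rows of the KLF1 list, which also has a row for each summit, in 322 distinct KLF1 intervals. Of the 340 rows 336 overlapped 1 KLF1 interval and 4 overlapped 2. The sites were chosen by measured values, namely the called peaks of both lists and their positions. Overlap and peak height are therefore described without a test.

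KLF3 binding came from J2E-KLF3-ER cells, which are the erythroid line J2E carrying KLF3 fused to an estrogen receptor domain that 4-hydroxytamoxifen activates. Its library was made from clone C, with an antibody to the receptor domain. KLF1 binding came from K1-ER cells of clones A and C, which are Klf1-null erythroblasts carrying KLF1-ER, with an antibody to KLF1. Chromatin of both lines was fixed with 0.4% formaldehyde after 3 hours in 200 nM 4-hydroxytamoxifen, and each library pooled 3 replicates. RNA came from 3 J2E-KLF3-ER libraries (clones A, C and E, 200 nM 4-hydroxytamoxifen) and 3 J2E libraries, of which the third received ethanol vehicle and the others 200 nM 4-hydroxytamoxifen. It had been labelled for 30 minutes with 500 µM 4-thiouridine, a base analogue that lets newly made RNA be pulled out. There was no J2E-KLF3-ER library without the drug, so activation of the fusion and differences between lines and clones cannot be told apart. Antibody, cell line and factor all change between the peak lists, so their effects cannot be told apart. J2E cells keep their own Klf3 and Klf1 genes. The promoter that drives the fusions is not given in the sources used here.

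Krüppel-like factors are zinc finger proteins that bind CACCC boxes and related GC-rich DNA. KLF1 is the erythroid activator of the family and turns on globin, heme, membrane and cell cycle genes, whereas KLF3 represses transcription through its corepressor CtBP and its gene is itself a KLF1 target. Introns close to the start site often hold regulatory elements, and several well-known erythroid enhancers lie further inside introns.

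The sites carry mm9 coordinates and no mm9 genome was used here, so the letters under the peaks are not shown. Promoters of the genes carrying the sites were taken instead from RefSeq on GRCm38.p6, each running from 250 bp before to 50 bp after a start site, and 236 of the 308 genes had an entry. The 5 shown belong to falling genes with a shared intron site and 1 entry in that table, taken in order of their RNA change. Sertad3, which encodes a transcriptional co-regulator, is at chr7:27473590-27473889 on the plus strand. Klf11, a repressor of the Krüppel-like family, is at chr12:24651121-24651420 on the plus strand. Kcnn4, the calcium-activated potassium channel of red cells, is at chr7:24370013-24370312 on the plus strand. Slc43a1, an amino acid transporter gene, is at chr2:84840073-84840372 on the plus strand. Epor, the erythropoietin receptor gene, is at chr9:21963527-21963826 on the minus strand. All are written 5′ to 3′ on the strand of the gene, and capitals mark matches to CCNCNCCC on either strand, with overlapping matches run together.
Sertad3: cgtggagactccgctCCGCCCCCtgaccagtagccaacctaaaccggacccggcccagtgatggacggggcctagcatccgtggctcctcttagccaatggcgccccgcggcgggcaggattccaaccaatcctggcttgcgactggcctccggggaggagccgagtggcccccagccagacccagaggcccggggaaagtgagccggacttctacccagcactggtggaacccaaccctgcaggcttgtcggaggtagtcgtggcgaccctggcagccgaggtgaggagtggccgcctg
Klf11: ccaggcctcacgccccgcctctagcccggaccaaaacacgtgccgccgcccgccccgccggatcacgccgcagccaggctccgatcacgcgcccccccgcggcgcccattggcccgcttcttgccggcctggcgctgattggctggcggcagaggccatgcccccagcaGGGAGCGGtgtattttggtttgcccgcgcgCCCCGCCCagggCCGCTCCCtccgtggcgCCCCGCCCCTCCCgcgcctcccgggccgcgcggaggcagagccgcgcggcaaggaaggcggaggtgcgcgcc
Kcnn4: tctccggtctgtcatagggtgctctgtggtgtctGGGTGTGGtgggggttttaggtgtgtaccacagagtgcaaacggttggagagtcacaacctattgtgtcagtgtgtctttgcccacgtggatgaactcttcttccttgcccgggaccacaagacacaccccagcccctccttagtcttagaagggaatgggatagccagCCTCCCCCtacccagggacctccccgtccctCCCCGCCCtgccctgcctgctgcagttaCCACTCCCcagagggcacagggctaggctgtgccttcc
Slc43a1: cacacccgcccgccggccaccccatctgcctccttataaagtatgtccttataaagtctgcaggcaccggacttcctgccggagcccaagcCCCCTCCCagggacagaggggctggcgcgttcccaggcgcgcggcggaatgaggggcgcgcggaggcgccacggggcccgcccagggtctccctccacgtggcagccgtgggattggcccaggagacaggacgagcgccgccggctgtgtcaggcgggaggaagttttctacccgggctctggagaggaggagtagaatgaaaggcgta
Epor: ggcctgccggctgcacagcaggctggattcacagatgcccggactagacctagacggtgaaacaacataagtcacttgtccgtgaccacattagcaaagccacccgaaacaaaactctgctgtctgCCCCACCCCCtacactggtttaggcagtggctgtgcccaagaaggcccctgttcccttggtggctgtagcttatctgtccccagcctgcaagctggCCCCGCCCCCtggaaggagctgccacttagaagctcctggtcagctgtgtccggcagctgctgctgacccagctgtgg
The Klf11 window held 5 such matches, the Kcnn4 and Epor windows 4 each, and the Sertad3 and Slc43a1 windows 1 each. The CACCC box of the Kcnn4 window is the stretch GGGTGTGG, which reads CCACACCC on the other strand.

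CCNCNCCC was common in these promoters and also in those of other bound genes. It occurred at 202 of the 236 genes with a shared intron site, in any of their promoter entries (85.6%, 95% exact interval 80.5 to 89.8). The share was 79.3% (74.5 to 83.5) of 333 genes whose intron KLF3 peaks were not shared, and 92.5% (90.2 to 94.5) of 644 genes with a shared promoter peak. It was 70.7% of 7086 genes tested for RNA and 51.9% of all 27025 genes in the table, and counted by entry it was 49.5% of 32851 promoters. The CCACACCC form was rare, with 12 of the 236 genes (5.08%, 2.65 to 8.71), against 6.31% of genes with unshared intron KLF3 peaks, 8.85% of genes with a shared promoter peak, 4.36% of tested genes and 4.09% of all genes in the table. Every CCACACCC also counts as CCNCNCCC. The GATA sequences AGATAA and TGATAA, which differ only in their opening base and were likewise searched on both strands, were found for 6.78% and 5.51% of the 236 genes. These shares were 8.11% and 4.80% for genes with unshared intron KLF3 peaks, 7.54% and 5.39% for tested genes and 12.7% and 10.4% for all genes in the table, so the genes with a shared intron site were near the level of tested genes. A match describes letters in a window and not a bound site.

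The peaks of both factors lay close on top of each other at most of the sites. The stretch shared with the highest overlapping KLF1 peak had a median of 254 bp (4 to 1175) and covered a median of 97.7% of the KLF3 interval, whose own median length was 301.5 bp (175 to 1847). That KLF1 peak covered at least 50% of the KLF3 interval at 303 sites and all of it at 158. Between the KLF3 summit and the nearest overlapping KLF1 summit there was a median of 25 bp (quartiles 12 and 62.25, at most 630). The summits were within 25 bp at 173 sites (50.9%, 95% exact interval 45.4 to 56.3), within 50 bp at 240 (70.6%) and within 100 bp at 285 (83.8%, 79.5 to 87.6). Fragments of 200 to 400 bp were sequenced, so gaps of up to 100 bp are smaller than a fragment.

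A smaller number of sites shared an interval more than a summit. The KLF3 summit was outside every KLF1 peak at 39 of the 340 sites. In 42 rows (12.4%) the KLF3 interval also held a promoter summit, and the highest overlapping KLF1 peak was annotated as promoter at 32 (9.41%), as intron at 294 (86.5%), as coding sequence at 8 and as UTR at 6. At Pole4, which encodes a subunit of DNA polymerase epsilon, the intron summit was 425 bp from the KLF1 summit, and that KLF1 peak was annotated as promoter. The same Pole4 interval held a promoter summit of KLF3 with an enrichment of 31.1. Both lists named the same gene at all 340 sites.

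The 3 sites with the smallest overlap had KLF3 enrichments below the lower quartile of all sites, 6.14. The smallest overlap was 4 bp at Ctnna1, an adherens junction gene, where the KLF3 enrichment was 4.80 and the KLF1 enrichment 8.66. Next came Fam214b with 15 bp (KLF3 enrichment 3.28, the lowest of all 340 sites, KLF1 13.5) and Zfand2b with 46 bp (KLF3 5.52, KLF1 6.11). Just outside the rule, an intron KLF3 peak of Csda (8.40) stopped 34 bp from a KLF1 peak (4.97). Those of Crip2 (4.88) and Vat1 (5.66) stopped 156 and 172 bp from KLF1 peaks of 21.1 and 17.6.

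Enrichment, the authors' ratio by which each list is ranked, was middling for KLF3 and higher in the list for KLF1. The sites had a median KLF3 enrichment of 8.08 (quartiles 6.14 and 10.9, range 3.28 to 33.3) and a median KLF1 enrichment of 12.9 (8.53 and 20.05, range 3.92 to 55.3). The KLF1 value given for a site is that of its highest overlapping KLF1 summit. This is not always the summit nearest to that of KLF3. The median percentile of the sites was 51.5 in the KLF3 list and 67.9 in the KLF1 list. Over the 319 distinct intervals the enrichments were weakly related (Spearman rho 0.17, Pearson r of log2 values 0.20), as a description over peaks that share the same 2 libraries. In the top 10% of both lists there were 11 intervals, with 15 in that of KLF3 alone and 51 in that of KLF1 alone. The size of an enrichment in one list was not compared with its size in the other.

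**Figure D1:**
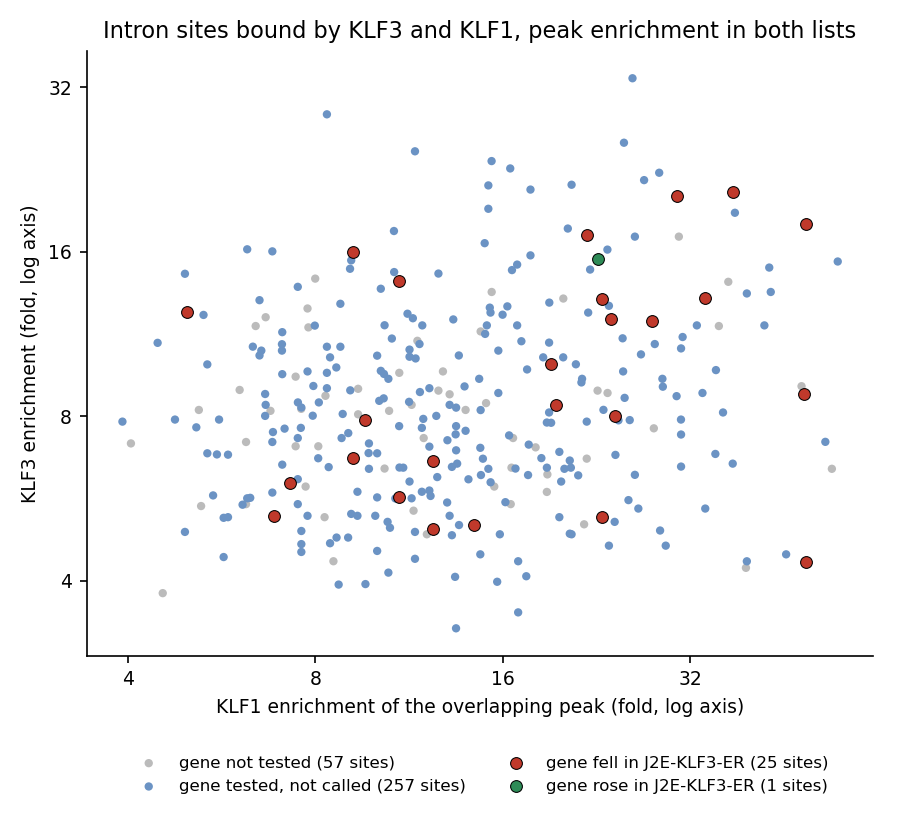
KLF3 enrichment (y axis, fold, log scale) against the enrichment of the overlapping KLF1 peak (x axis, fold, log scale) for the 340 shared intron sites, with sites of called genes coloured. The points form a broad cloud, with a Spearman rho of 0.17 over 319 intervals.

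The highest KLF3 summits were at genes of varied roles. Zfp389, a zinc finger gene, had the highest (chr13:21598056-21598401, KLF3 enrichment 33.3, KLF1 25.9), with its summit 169 bp inside the gene. Eif1, a translation initiation factor gene, followed with a KLF3 enrichment of 28.6 and a KLF1 enrichment of 8.35. Iba57, a gene of iron-sulfur cluster assembly, had 25.3 for KLF3 and 25.1 for KLF1. These 3 sites were all within 1 kb of the start site. Gnai2 (inhibitory G protein), Tbc1d14 (a Rab regulator), Atl3 (an endoplasmic reticulum GTPase), Gypc (glycophorin C of the red cell membrane) and Nr1d1 (the clock repressor REV-ERB alpha) completed the first 8, with KLF3 enrichments of 24.4, 23.5, 22.7, 22.3 and 21.7. None of the genes of these 8 sites was called changed in RNA, and on the log2 scale of the authors' deposited table they ran from -0.42 (Gnai2) to 0.52 (Gypc).

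The highest KLF1 partners marked other genes. Dennd6a, which encodes an exchange factor for a Rab GTPase, had the highest KLF1 enrichment (chr14:27399271-27399548, KLF1 55.3, KLF3 15.4). Gm10516 followed with a KLF1 enrichment of 54.1, and 1500011B03Rik with 52.8, at a summit inside Ankrd13a. The intron interval of Midn, which encodes a nuclear protein that brings proteins to the proteasome, came next with a KLF1 enrichment of 49.1 at both of its intron summits, from a KLF1 peak annotated as promoter. Impdh1 (guanine nucleotide synthesis) had 48.8, Tsga10 (a sperm tail gene) 48.3 and Elovl1 (fatty acid elongation) 45.7. The Impdh1 value was also that of a KLF1 summit annotated as promoter, and the KLF1 intron summit of the same interval had 13.8. Of these genes Midn and Impdh1 fell in RNA, as given below with the other called genes.

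The sites lay mainly downstream of a start site, and about as many were within 1 kb of it as farther away. The summit was within 1 kb of the start at 177 sites (52.1%, 95% exact interval 46.6 to 57.5), between 1 and 10 kb at 98 (28.8%, 24.1 to 34.0) and beyond 10 kb at 65 (19.1%, 15.1 to 23.7). The median distance was 926.5 bp (115 to 194834), and 316 of the 340 summits (92.9%) were downstream of the assigned start. The intron class itself favours this side. Unshared intron peaks were downstream in 96.4% of cases for KLF3 and 85.8% for KLF1. Median peak heights were close across these bands, with KLF3 enrichments of 8.01 within 1 kb, 8.24 at 1 to 10 kb and 8.19 beyond 10 kb. The median KLF1 enrichments were 11.9, 14.2 and 13.5 in the same order of distance.

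Shared intron sites stood between the unshared intron peaks of the 2 factors in distance. Intron KLF3 peaks without KLF1 were within 1 kb in 61.0% of 498 cases (56.6 to 65.4), with a median distance of 690.5 bp. Intron KLF1 peaks without KLF3 were within 1 kb in 10.5% of 1093 cases (8.76 to 12.5) and beyond 10 kb in 51.7%, with a median of 10609 bp. Counted as KLF1 rows, the 360 KLF1 peaks overlapping the sites were within 1 kb in 53.1% (47.8 to 58.3). The interval for shared KLF1 peaks and that for unshared intron KLF1 peaks did not overlap, and these intervals cover counting error only. The 2 sets are unlike in class, because the 360 rows were taken by overlap alone and include some annotated as promoter, near a start site. The 1093 unshared rows were all annotated as intron. The rule used the overlap and the intron class, and it left out shared promoter summits of KLF3, which were all within 1 kb. The distances are therefore partly set by the rule. The lists' own rates near start sites also differ, with 81.2% of all KLF3 peaks and 41.0% of all KLF1 peaks within 1 kb. In length, the sites had a median of 301.5 bp, against 237 bp for intron KLF3 peaks without KLF1 and 362 bp for shared promoter peaks of KLF3.

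**Figure D2:**
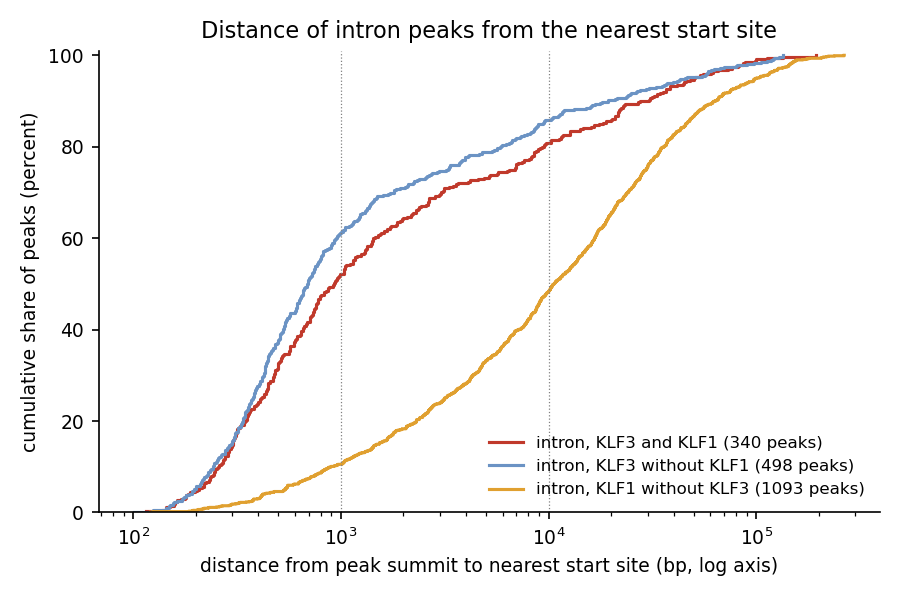
Cumulative share of peaks (y axis, percent) by distance from summit to nearest start site (x axis, bp, log scale) for shared intron sites and intron peaks of either factor alone, with dotted lines at 1 and 10 kb. Shared intron sites are within 1 kb in 52.1% of cases, against 61.0% of intron KLF3 peaks without KLF1 and 10.5% of intron KLF1 peaks without KLF3.

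By chromosome, 11 held the most sites with 47 (13.8%, 10.3 to 18), against 10.2% of all KLF3 peaks. Chromosome 4 had 28 sites, chromosome 7 had 25 and the X chromosome had 2.

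Newly made RNA was compared between J2E-KLF3-ER and J2E in the authors' deposited table, which gives 1 FPKM value per group (fragments scaled for transcript length and for the size of the library). No spread between libraries can be set beside these values, and the depth of each library is unknown here. The labels set the third J2E library apart by its vehicle treatment, but nothing in them ties the other J2E libraries to separate cultures. The p-values in the authors' deposited table then reflect library-to-library spread that may be partly technical. In J2E that spread also includes the difference in treatment. A gene is called changed at the authors' q-value below 0.05, and it fell or rose according to J2E-KLF3-ER over J2E. In all, 183 of the 9619 tested genes fell in the authors' deposited table, a background of 1.90%, and 79 rose, a background of 0.821%. The median over all tested genes was 0.03 on the log2 scale of the authors' deposited table.

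The fusion was visible in the RNA and the cells were erythroid by their markers. Klf3 had 180 FPKM in J2E-KLF3-ER and 7.46 FPKM in J2E in the authors' deposited table, in which fusion and resident transcripts cannot be told apart. Klf1 itself had 55.6 FPKM in J2E-KLF3-ER and 122 FPKM in J2E in the authors' deposited table, and so fell by 1.14 on the log2 scale (q = 0.00408). All 10 erythroid markers were listed above 6 FPKM in both groups, with sums of 501 FPKM in J2E-KLF3-ER and 693 FPKM in J2E in the authors' deposited table. Of 5 megakaryocyte markers, Pf4 and Itga2b made up nearly the whole sum of 175 FPKM in J2E-KLF3-ER and 157 FPKM in J2E in the authors' deposited table, while Gp9, Vwf and Gp1bb were at most 2.02 FPKM. The sum of 5 myeloid markers was 23.6 FPKM in J2E-KLF3-ER and 30.6 FPKM in J2E in the authors' deposited table, most of it Csf1r. Spi1, also planned as a myeloid marker, had no value there and is not in the sum. Mast cell and lymphoid markers summed to at most 1.10 FPKM in either group of the authors' deposited table, and Fcer1a was listed at 0 in both. The part of other cell types in the results below was not tested. In bulk RNA, fewer cells of a type and less RNA per cell cannot be told apart.

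Genes with a shared intron site fell more often than the background. Of the 308 genes, 252 were tested, 55 had no test and 1 had too little data in the authors' deposited table. Among the tested genes 19 fell (7.54%, 95% exact interval 4.60 to 11.5), against the background of 1.90%, and 1 rose (0.397%), against 0.821%. The median log2 fold change of the 252 genes was -0.09 in the authors' deposited table, and 154 of them (61.1%) were below 0, against 46.6% of all tested genes. At an unadjusted p-value below 0.05 in the authors' deposited table, 45 of the 252 were lower and 12 higher in J2E-KLF3-ER, while over all tested genes 719 (7.47%) were lower and 763 (7.93%) higher. The median level was 14 FPKM in J2E-KLF3-ER and 14.8 FPKM in J2E for these genes, and 12.6 and 12.4 FPKM for all tested genes in the authors' deposited table. The site came from 1 KLF3 library and the fall from other libraries, but clone C and the J2E-KLF3-ER line are common to both.

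Other classes of peaks had their own shares of falling genes. Genes of intron KLF3 peaks without KLF1 fell in 11 of 393 tested cases (2.80%, 1.41 to 4.95), with a median of -0.01 on the log2 scale of the authors' deposited table. For intron KLF1 peaks without KLF3 18 of 596 tested genes fell (3.02%, 1.80 to 4.73). Genes of shared promoter peaks fell in 33 of 709 cases (4.65%, 3.23 to 6.47) and those of shared distal peaks in 12 of 113 (10.6%, 5.61 to 17.8). The interval for shared intron sites overlapped those of every class named here, narrowly for both classes of unshared intron peaks. A gene can belong to more than 1 class, so these shares are not independent.

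**Figure D3:**
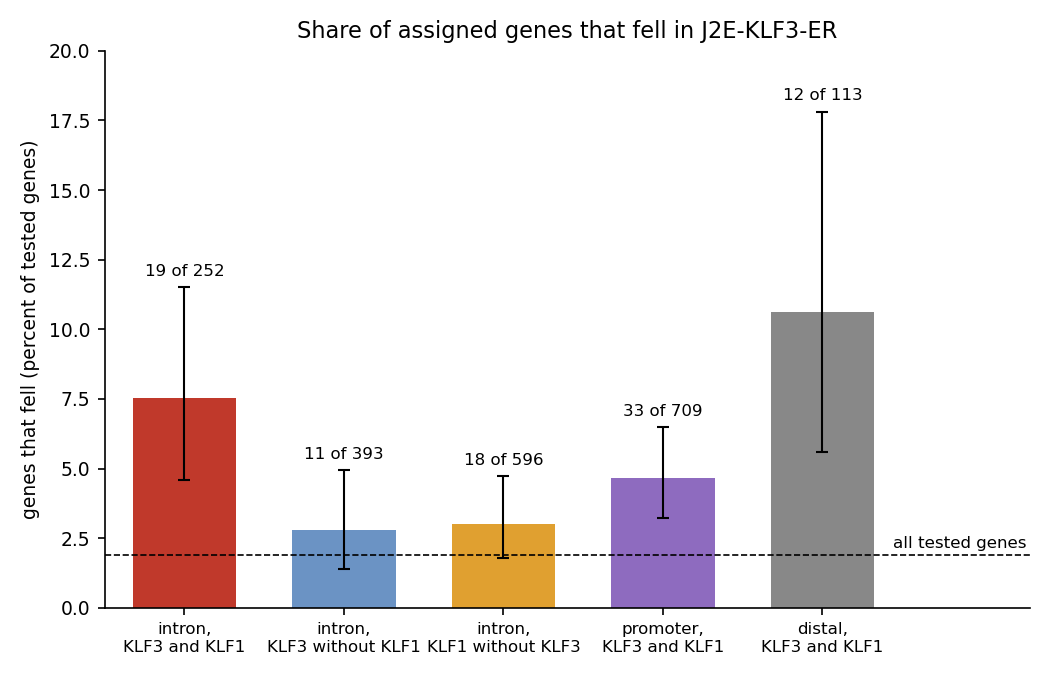
Share of tested genes called falling (y axis, percent) for each class of peak, with 95% exact intervals, and the background of all tested genes as a dashed line. Shared intron sites are at 7.54%, above the background of 1.90%, and shared distal sites at 10.6%.

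The falling genes had varied known roles, and those with the largest changes are given below. Sertad3 had 1.90 FPKM in J2E-KLF3-ER and 8.01 FPKM in J2E in the authors' deposited table (log2 fold change -2.08, q = 0.0148). Its site (chr7:28259486-28259847, KLF3 enrichment 12.4, KLF1 4.97) was 766 bp downstream of the start. This was the deepest fall on the log2 scale among these genes, at a low level in J2E-KLF3-ER. Klf11 had 1.13 FPKM in J2E-KLF3-ER and 3.26 FPKM in J2E in the authors' deposited table (log2 fold change -1.53, q = 0.00707). Its site (chr12:25336535-25336931, KLF3 12, KLF1 23.9) was 480 bp downstream of the start.

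Kcnn4, the channel through which red cells lose potassium and water, had 19.5 FPKM in J2E-KLF3-ER and 53.6 FPKM in J2E in the authors' deposited table (log2 fold change -1.46, q = 0.00408). Its intron site (chr7:25162078-25162379, KLF3 20.2, KLF1 30.5) was 6941 bp downstream of the start. This gene also had promoter peaks of KLF3 (5.53) and KLF1 (25.5), so it was bound by both factors at both places. Bbc3, which encodes the cell death protein PUMA, had 10.8 FPKM in J2E-KLF3-ER and 27.5 FPKM in J2E in the authors' deposited table (log2 fold change -1.36, q = 0.00408). Its site (chr7:16898504-16898694, KLF3 5.69) was 3668 bp downstream, and no promoter peak was listed. The nearest KLF1 summit had an enrichment of 7.46. The highest KLF1 summit of that interval (10.9) was annotated as coding sequence. Eif4ebp1, a repressor of cap-dependent translation, had 22.9 FPKM in J2E-KLF3-ER and 53.8 FPKM in J2E in the authors' deposited table (log2 fold change -1.23). Its interval (chr8:28370631-28371981) held 2 intron summits (KLF3 13.1 and 5.23) and a promoter summit (12.1), so intron and promoter binding were not separate there.

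Slc43a1 had 58.0 FPKM in J2E-KLF3-ER and 132 FPKM in J2E in the authors' deposited table (log2 fold change -1.18). Its site (chr2:84682229-84682435, KLF3 12, KLF1 27.8) was 1537 bp downstream, and the promoter held a KLF3 peak of 6.81 with no KLF1 overlap. E2f2, an E2F factor of the erythroid cell cycle, had 41.1 FPKM in J2E-KLF3-ER and 92.3 FPKM in J2E in the authors' deposited table (log2 fold change -1.17). It had 2 separate sites, 1 at chr4:135733864-135734208 (KLF3 13.2, KLF1 33.8) and 1 at chr4:135730762-135731018 (KLF3 9.97, KLF1 19.2). They were 5712 and 2569 bp downstream of the start, with summit gaps of 2 and 4 bp. Epor had 39.4 FPKM in J2E-KLF3-ER and 85.4 FPKM in J2E in the authors' deposited table (log2 fold change -1.12). Its site (chr9:21766902-21767218, KLF3 8.01, KLF1 24.2) was 977 bp downstream with a summit gap of 3 bp, and neither list had an Epor promoter peak.

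Prx (periaxin, best known from myelinating Schwann cells) had 2.95 FPKM in J2E-KLF3-ER and 5.89 FPKM in J2E in the authors' deposited table (log2 fold change -0.997, q = 0.00995). Its site (chr7:28293063-28293390, KLF3 5.07, KLF1 14.4) was 8933 bp downstream, the farthest of the falling genes. Midn had 16.2 FPKM in J2E-KLF3-ER and 31.8 FPKM in J2E in the authors' deposited table (log2 fold change -0.97). Its interval (chr10:79610779-79612626) was the longest of all 319, with 1847 bp, and held a promoter summit as well. Fam171a2 had 8.17 FPKM in J2E-KLF3-ER and 15.8 FPKM in J2E in the authors' deposited table (log2 fold change -0.96). Its site (chr11:102317084-102317269, KLF3 6.03, KLF1 7.28) was 8192 bp upstream of Fam171a2 and inside Itga2b.

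Map3k6, a kinase gene of the stress-activated cascade, had 18.9 FPKM in J2E-KLF3-ER and 35.4 FPKM in J2E in the authors' deposited table (log2 fold change -0.90). The other falling genes were Pole4, Tgfb1 (transforming growth factor beta 1), Prdx2 (the peroxiredoxin abundant in red cells), Impdh1, Lmna (lamin A and C), Bahd1 (a heterochromatin protein) and D4Wsu53e. On the log2 scale of the authors' deposited table they ran from -0.88 at Pole4 to -0.62 at D4Wsu53e. Tgfb1 had 49.5 FPKM in J2E-KLF3-ER and 85.8 FPKM in J2E in the authors' deposited table, with the highest KLF3 intron summit of the falling genes (20.6, KLF1 37.5, chr7:26474014-26474625). Prdx2 had 64.1 FPKM in J2E-KLF3-ER and 109 FPKM in J2E in the authors' deposited table, at a site 1502 bp downstream with a summit gap of 2 bp (KLF3 8.38, KLF1 19.5). Zfp62, a zinc finger gene, was the gene that rose, with 15.9 FPKM in J2E-KLF3-ER and 8.61 FPKM in J2E in the authors' deposited table (log2 fold change 0.88, q = 0.00408). Its site (chr11:49016979-49017292, KLF3 15.5, KLF1 22.7) was 143 bp downstream of the start, the only one of its peaks in either list.

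**Figure D4:**
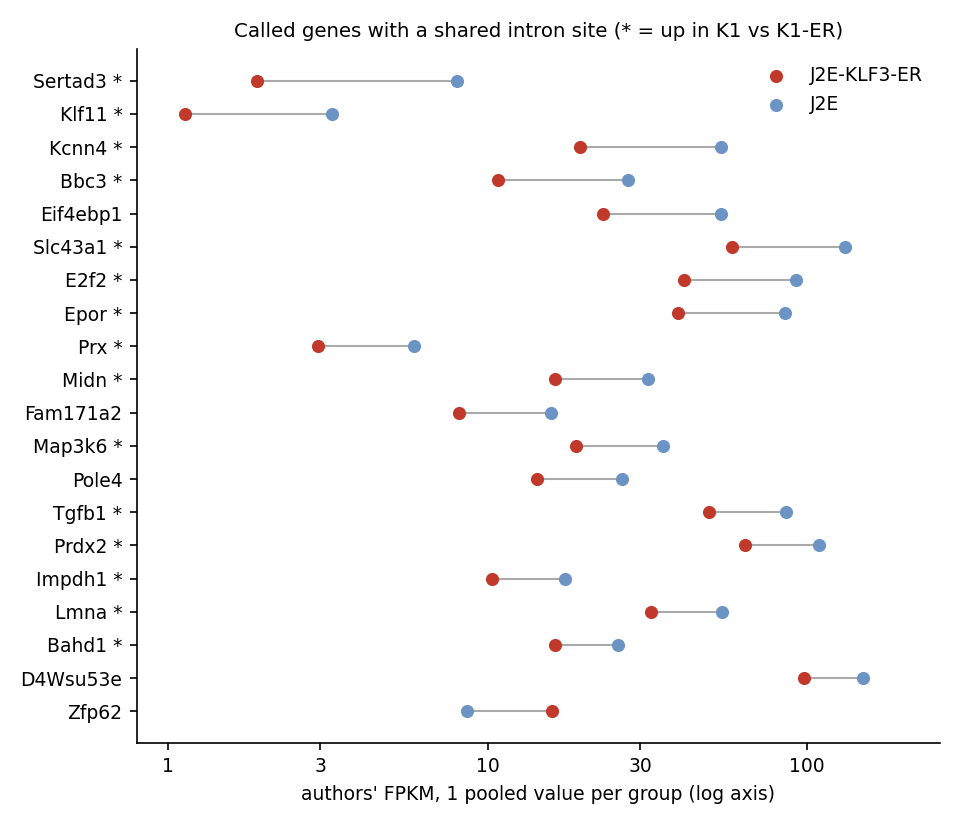
FPKM (x axis, log scale) in J2E-KLF3-ER and in J2E for the 20 called genes with a shared intron site, from the authors' deposited table, 1 pooled value per group, with an asterisk at genes flagged up in K1 vs K1-ER. In 19 genes the J2E-KLF3-ER value is the lower one, and in Zfp62 it is the higher one.

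Falling genes were counted by the distance of the nearest site. Among genes whose nearest shared intron site was within 1 kb, 11 of 150 fell (7.33%, 3.72 to 12.7), and among those at 1 to 10 kb 8 of 61 fell (13.1%, 5.84 to 24.2). Beyond 10 kb 0 of 41 fell, for which the 95% exact interval reaches up to 8.60% (7.32% by the rule of 3 counts), and 2 were lower and 4 higher at an unadjusted p-value below 0.05 in the authors' deposited table. On the log2 scale of the authors' deposited table the medians were -0.09 within 1 kb, -0.18 at 1 to 10 kb and -0.01 beyond 10 kb. The intervals of the 3 bands overlap, and a difference between the bands was not tested. Genes beyond 10 kb also had lower levels, with medians of 10.5 FPKM in J2E-KLF3-ER and 9.56 FPKM in J2E in the authors' deposited table, against 15.2 FPKM in J2E-KLF3-ER and 15 FPKM in J2E for genes within 1 kb.

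Falling genes were found with and without a promoter peak. Genes were split by the promoter class that each list gives its own peaks. With promoter peaks listed for both factors 5 of 52 tested genes fell (Eif4ebp1, Impdh1, Kcnn4, Midn and Pole4). With a promoter peak listed for KLF3 but not for KLF1 4 of 54 fell (Lmna, Map3k6, Sertad3 and Slc43a1). This group is not free of KLF1, because some of its KLF3 promoter peaks, such as that of Ap2m1, overlapped a KLF1 peak. Those of its 4 falling genes did not. With a promoter peak listed for KLF1 but not for KLF3 2 of 14 fell (Bahd1 and Tgfb1). Of the 132 tested genes with no promoter peak listed for either factor 8 fell (6.06%, 2.65 to 11.6), namely Bbc3, D4Wsu53e, E2f2, Epor, Fam171a2, Klf11, Prdx2 and Prx. By KLF3 enrichment, 13 of 129 genes at or above the median gene fell (10.1%, 5.48 to 16.6), against 6 of 123 below it (4.88%, 1.81 to 10.3). By KLF1 enrichment the counts were 12 of 132 (9.09%, 4.79 to 15.2) and 7 of 120 (5.83%, 2.38 to 11.6). The intervals overlap in each of these splits.

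The KLF1 list also says, for the gene nearest to each peak, whether it was called in another comparison, which its header names K1 vs K1-ER. The header does not say which line is on top, so the direction of its flags is left as written, up or down. Of all 3800 KLF1 rows 721 carried the flag up, a background of 19.0%, and 20 carried the flag down. The 360 KLF1 peaks at shared intron sites include some annotated as promoter, coding sequence or UTR. Among these 360 peaks 82 were flagged up (22.8%, 95% exact interval 18.5 to 27.5) and 0 down. Among intron KLF1 peaks without KLF3 178 of 1093 were flagged up (16.3%, 14.1 to 18.6) and 10 down. The share at the shared sites was near the background, and its interval just overlapped that of the unshared intron peaks.

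Most falling genes were among those flagged up. Of the 52 tested genes with a shared intron site and the flag up, 15 fell (28.8%, 17.1 to 43.1) and 38 were below 0, with a median of -0.37 on the log2 scale of the authors' deposited table. At an unadjusted p-value below 0.05 in the authors' deposited table, 24 of the 52 were lower and 2 higher, against 7.47% and 7.93% of all tested genes, and 0 rose at q below 0.05. Without the flag 4 of 200 fell (2.00%, 0.548 to 5.04), namely D4Wsu53e, Eif4ebp1, Fam171a2 and Pole4, and Zfp62 rose, with a median of -0.05 in the authors' deposited table. The share without the flag was near the background of 1.90%, and the intervals with and without the flag did not overlap. Genes flagged up without a shared intron site fell in 28 of 239 cases (11.7%, 7.93 to 16.5), with a median of -0.21 in the authors' deposited table, so a share above the background was also seen without these sites. The intervals of genes flagged up with and without a shared intron site did not overlap. Klf1 RNA was lower in J2E-KLF3-ER, as given above, and its part in these falls was not tested.

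**Figure D5:**
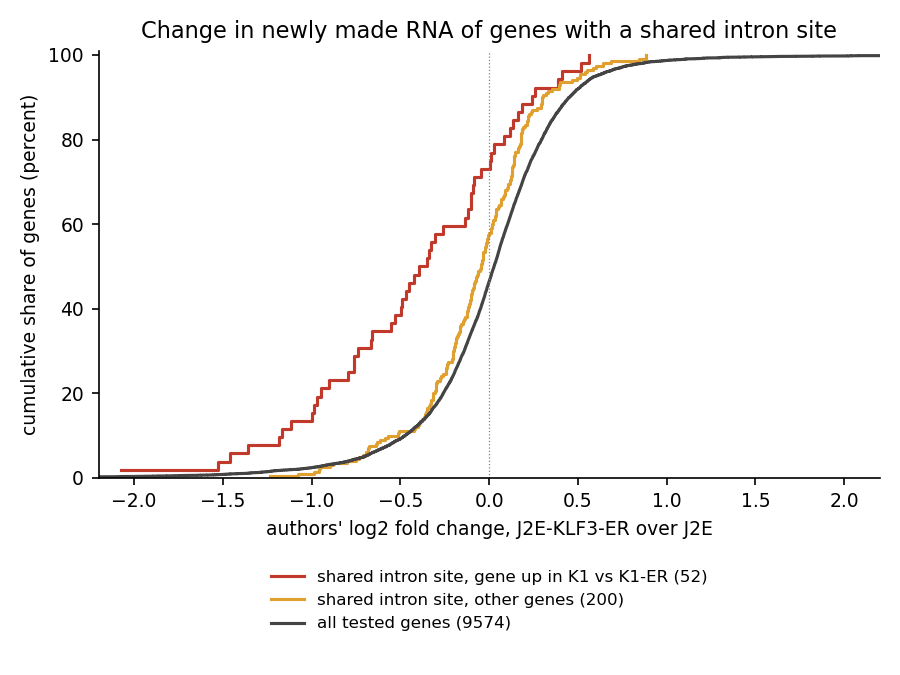
Cumulative share of genes (y axis, percent) by log2 fold change (x axis, J2E-KLF3-ER over J2E, authors' deposited table) for genes with a shared intron site with and without the flag up in K1 vs K1-ER, and for all tested genes with a finite value. The median is -0.37 with the flag and -0.05 without it.

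Counts in the gene lists below stand beside these shares over all tested genes: 2.62% had a shared intron site, 1.90% fell and 0.821% rose. At an unadjusted p-value below 0.05 in the authors' deposited table, 7.47% were lower and 7.93% higher. The lists were chosen with earlier results of these data known, so their counts are not read as a result about them. Of the 10 lists, that of the red cell membrane and cytoskeleton carried the most shared intron sites. Of 30 such genes 8 had 9 sites, and of the 28 tested 4 fell and 0 rose (8 lower and 2 higher at an unadjusted p-value below 0.05). Kcnn4 was the falling gene with a site. Gypc had the highest KLF3 enrichment among them (chr18:32702134-32702463, KLF3 22.3, KLF1 28.6), with 15.2 FPKM in J2E-KLF3-ER and 10.6 FPKM in J2E in the authors' deposited table (log2 fold change 0.52, not called). Epb4.9, which encodes the actin-bundling protein dematin, had 5.07 FPKM in J2E-KLF3-ER and 8.05 FPKM in J2E in the authors' deposited table (log2 fold change -0.67, q = 0.0795). Ank1, the ankyrin that ties band 3 to spectrin, had 2 sites (KLF3 8.71 and 7.90, KLF1 30.5 and 5.60) and near-equal levels of 85.8 FPKM in J2E-KLF3-ER and 84.5 FPKM in J2E in the authors' deposited table. Sptb (beta spectrin), Add3 (adducin), Tspan33 and Tpm3 (tropomyosin) stood at 0.12, 0.18, -0.12 and -0.11 on the log2 scale of the authors' deposited table, and none was called.

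Of the 32 cell cycle and survival genes 5 had 8 sites, and of the 28 tested 3 fell and 0 rose. Of the falling ones 2 had a site (E2f2 and Bbc3). E2f3, another E2F factor, had a site 1109 bp downstream at which both summits fell on the same base (KLF3 12.3, KLF1 16). Its levels were 26.5 FPKM in J2E-KLF3-ER and 19.1 FPKM in J2E in the authors' deposited table (log2 fold change 0.47, not called). Ccnd3, a D-type cyclin gene, was the gene with the most separate intervals. Its 3 sites had KLF3 enrichments of 8.83, 6.24 and 5.26 and KLF1 enrichments of 33.5, 21.2 and 9.35, and its RNA was 11.0 FPKM in J2E-KLF3-ER and 11.7 FPKM in J2E in the authors' deposited table. Cdkn1a, a cell cycle inhibitor gene, stood at -0.14 on the log2 scale of the authors' deposited table and was not called.

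Of the 30 erythroid transcription factor genes 3 had 5 sites (E2f2, Zfpm1 and Lyl1), while of the 27 tested 6 fell and 1 rose. Zfpm1, which encodes the GATA1 partner FOG1, had 2 sites (KLF3 11.4 and 5.06, KLF1 7.08 and 13.6) and was not called (log2 fold change -0.18 in the authors' deposited table). The site assigned to Lyl1, a TAL1-related factor gene, was 21502 bp from its start and inside Nfix. In the Krüppel-like and SP family 2 of 25 genes had a site, and of the 15 tested 5 fell and 2 rose. Klf11 fell, and Klf13 stood at -0.33 on the log2 scale of the authors' deposited table (not called) with a KLF3 enrichment of 9.23 and a KLF1 enrichment of 21.4. Of 28 genes of erythropoietin and KIT signalling 2 had a site, namely Epor, the 1 falling gene among 19 tested, and Pik3r1, a regulatory subunit of phosphoinositide 3-kinase (log2 fold change -0.13 in the authors' deposited table).

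Over all tested genes, 2.62% had a shared intron site, so the small counts in the following lists are not read as a result about them. Of 20 globin and heme genes 1 had a site, Slc25a38, the mitochondrial glycine carrier of heme synthesis (KLF3 10.3, KLF1 18.6), with 11.6 FPKM in J2E-KLF3-ER and 13.9 FPKM in J2E in the authors' deposited table. Of the 18 tested in that list 1 fell, and it had no shared intron site. Of 17 iron handling genes 0 had a site, and of the 13 tested 0 were called by the authors' test (2 lower and 0 higher at an unadjusted p-value below 0.05). Among 22 corepressor and chromatin partner genes, all tested with 0 called (0 lower and 0 higher at an unadjusted p-value below 0.05), Ctbp1, the corepressor gene, had 1 site (KLF3 5.57, KLF1 16.2) and stood at -0.24 on the log2 scale of the authors' deposited table. Among 29 autophagy genes, of which 27 were tested and 0 called (1 lower and 0 higher at an unadjusted p-value below 0.05), Map1lc3a had 1 site (KLF3 6.25, KLF1 14.8). It encodes a form of the autophagosome protein LC3, and stood at -0.90 on the log2 scale of the authors' deposited table (q = 0.379, not called). Of 24 markers of other blood cells 1 had a site, Itga2b, the platelet integrin gene (KLF3 14.7, KLF1 10.7), with 80.8 FPKM in J2E-KLF3-ER and 75 FPKM in J2E in the authors' deposited table. In that list 6 genes were tested and 2 fell.

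A few genes held more than 1 separate interval. There were 10 such genes, all tested, of which E2f2 and Lmna fell (20%, 2.52 to 55.6). Lmna had a site 245 bp downstream of its start (chr3:88296775-88297175, KLF3 17.2, KLF1 21.8) and another at 1847 bp (chr3:88295254-88295489, KLF3 5.26, KLF1 6.87). Its RNA was 32.4 FPKM in J2E-KLF3-ER and 54.1 FPKM in J2E in the authors' deposited table (log2 fold change -0.74, q = 0.0148). Sema4b, a semaphorin gene, also had 2 intervals and stood at -0.49 on the log2 scale of the authors' deposited table (q = 0.0736), which was not called.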

How the data were processed

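KLF3 and KLF1 binding was measured by ChIP-seq and newly made RNA by sequencing of 4sU-labelled RNA. MACS 1.4.2, MACS2 and TopHat2 2.0.10 and the build mm9 are named in the submitters' processing notes, without roles or settings. Each peak has an enrichment (a fold ratio, the basis of its rank), a summit, a class and a nearest start site, per the file headers. Each ChIP library pooled 3 replicates, per the labels' protocols, so each list is 1 pooled library. In the authors' deposited table of RNA, FPKM is 1 pooled value per group, beside a log2 fold change, their p-value and q-value, and the score of their test. Its 93 blank rows were dropped. There were 0 unused per-sample columns.

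From these files, overlaps of at least 1 bp, summit gaps, distances and counts of called genes were computed. The design was for per-sample values or, if only pooled ones were held, the authors' q-value, and the second was used. Genes were called at q below 0.05. Shares carry 95% exact (Clopper-Pearson) intervals, which treat peaks or genes as independent and cover counting error only. The depth of the libraries is unknown here. In the KLF1 list 13 gene names turned into dates were read back. The overlap step was tested on simulated data, and the counting of called genes was not. Calculations used Python 3.11.15, pandas 2.3.3, NumPy 2.4.6 and SciPy 1.17.1, and figures matplotlib 3.10.9.

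Members and the 10 gene lists were chosen with earlier results of these data known. Genes are named by a rule: the 8 highest sites for each factor, up to 12 falling and 12 rising genes by size of change, list members (up to 5 per list with values), genes with the most intervals, and the 3 sites on either side of the overlap limit. The falling genes after the first 12, Sema4b and the genes holding a site assigned to another gene were named after their values were seen.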

Additional observations from a re-analysis of the deposited data

How the results depend on the processing

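Of 65 alternatives to the main counts, shares and median, 58 stayed within 1.5 times the count or within its interval. Counts and shares have no direction to change. The median log2 fold change stayed below 0 in every setting that gave one. Some settings could not move the gene results, as at least 1 FPKM in both groups and distinct intervals each left 252 tested genes and 19 falling ones. The exceptions came from stricter definitions of a site. The share of intron KLF3 peaks counted as shared was 36.2% when at least 50% of the interval had to be covered and 34.0% with summits within 100 bp. With an enrichment of at least 10 in both lists it was 46.5%, taken only over intron KLF3 peaks that reached 10. That last setting left 79 sites, with 9 falling genes (12.7% of those tested), of which 7 were flagged up; fewer sites enter by construction. The share within 1 kb of a start, 52.1% in the main setting, was 48.2% with at least 50% covered and 47.4% with summits within 100 bp. It was 49.0% with an enrichment of at least 5, 54.4% with an enrichment of at least 10 and 51.7% over distinct intervals. At q below 0.1 the falling genes numbered 24 and at q below 0.01 they numbered 15. Taking the genes that span the summit in place of the nearest start, a choice made after seeing the data, gave 18 falling genes of 287 tested (6.27%). On log2(FPKM + 1), also added later, Klf11 was at -1.001 and Sertad3 at -1.64 in place of -1.53 and -2.08, as both have low FPKM. No paired analysis was possible because the table holds 1 pooled value per group, and for the same reason leaving out each replicate was not run. Each binding list is 1 pooled library, so no spread of binding between replicates is known. Motif shares in the sites themselves were not run without an mm9 genome.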

Other observations

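At 16 of the 340 sites the summit was not inside the gene to which the authors assigned it, and 17 other genes spanned those summits. Of these, 12 were tested. At the authors' q-value below 0.05, 0 fell and 0 rose, against 1.90% and 0.821% of all tested genes. None had an unadjusted p-value below 0.05, against 7.47% lower and 7.93% higher over all tested genes. With such shares 12 genes are too few for these counts to be read as a result about them. The Fam171a2 site lay in Itga2b, which had 80.8 FPKM in J2E-KLF3-ER and 75 FPKM in J2E in the authors' deposited table, whereas Fam171a2 fell. The Hspa5 site lay in Rabepk, with 8.05 FPKM in J2E-KLF3-ER and 7.97 FPKM in J2E in the authors' deposited table. The Lyl1 site lay in Nfix, a nuclear factor I gene, with 27.4 FPKM in J2E-KLF3-ER and 29.2 FPKM in J2E in the authors' deposited table. A second site inside Sptb was assigned to AI463170, 46048 bp away, with a KLF3 enrichment of 8.46 and a KLF1 enrichment of 15.0.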
